A study of Mus musculus with 16 samples.

Results

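The 3 Ccm3 knockout (KO) mouse brain microvascular endothelial cell (mBMEC) libraries treated with rapamycin (KO+R) were compared directly with the 3 KO libraries treated with propranolol (KO+P). These 6 libraries, out of 16 in the series, are those that the labels give as KO with either drug. The cells came from brains of 8 to 10-week-old mice with floxed Ccm3 alleles (the gene is also called Pdcd10) and a tamoxifen-inducible Cre recombinase, Cdh5(PAC)-CreERT2, which is driven by the endothelial VE-cadherin promoter. KO cultures had received 4-hydroxytamoxifen (4-OHT) to activate Cre and wild-type (WT) cultures had not, so that an effect of 4-OHT and an effect of Ccm3 loss cannot be told apart between genotypes, although within KO all 6 libraries shared the 4-OHT, the floxed alleles and Cre. Rapamycin was given at 100 nM and propranolol at 10 µM, each for 24 h. Untreated KO (3 libraries), untreated WT (3), WT+P (2) and WT+R (2) libraries served as references. Each replicate number stands for a cell culture made from the pooled brains of several mice, and libraries with the same number were compared with each other.

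Rapamycin, bound to FKBP12, blocks mTORC1, a kinase complex through which amino acids and growth factors promote translation, sterol and lipid synthesis through the SREBP transcription factors, and amino acid metabolism through the transcription factor ATF4. Propranolol blocks beta-adrenergic receptors and is also a cationic amphiphilic amine, a class of molecule that collects in acidic compartments such as lysosomes. Loss of CCM3 releases the MEKK3, KLF2 and KLF4 pathway in brain endothelial cells, and bone morphogenetic protein (BMP) signalling, read out by the ID genes and the inhibitory SMADs, is another pathway studied in cavernomas.

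Short stretches of promoter DNA are printed for a few genes of the sterol, amino acid and YAP groups described in the following paragraphs. They are examples that hold the letters searched, which many other members of these groups do not carry. They were read from the mouse genome (GRCm39) on the strand of the gene, with positions counted from the first transcribed base of the canonical transcript as 0. The letters TGATGCAA, an ATF4 and C/EBP composite element, were searched on both strands between positions -250 and 50. Promoters of genes on a single autosome and on the mitochondrial genome were not read, so some lists hold fewer promoters than tested genes. The letters were present in 68 of the 12743 promoters read of tested protein-coding genes (0.534%). They were in 4 of 16 promoters of ATF4 and amino acid stress genes and in 4 of 17 of cytosolic aminoacyl-tRNA synthetases. For amino acid transporters it was 2 of 14, and for serine, one-carbon and asparagine synthesis 2 of 19. Among genes lower in KO+R than in KO+P they were in 16 of 761 promoters (2.1%), and among genes higher in KO+R in 0 of 529. The next 3 sequences are those of Chac1, Slc7a11 and Ddit3, with TGATGCAA or its reverse complement in capitals, at positions -159 to -152 in Chac1, -65 to -58 and -46 to -39 in Slc7a11, and -199 to -192 in Ddit3.
Chac1, chr2:119181489-119181588, plus strand: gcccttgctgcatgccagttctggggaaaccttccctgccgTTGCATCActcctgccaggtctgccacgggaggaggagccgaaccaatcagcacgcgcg
Slc7a11, chr3:50398064-50398163, minus strand: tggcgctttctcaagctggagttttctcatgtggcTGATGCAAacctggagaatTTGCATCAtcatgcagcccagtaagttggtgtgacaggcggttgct
Ddit3, chr10:127126320-127126419, plus strand: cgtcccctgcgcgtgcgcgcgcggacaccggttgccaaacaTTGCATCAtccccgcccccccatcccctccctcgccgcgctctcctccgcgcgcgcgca

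The letters TCACCCCAC, a sterol response element of the kind that SREBP binds, were in few promoters. They were in 1 of 23 promoters of the cholesterol list (4.35%), in 70 of the 12743 promoters (0.549%), in 8 of the 761 of genes lower in KO+R (1.05%) and in 2 of the 529 of genes higher in KO+R (0.378%). The 1 promoter was that of Hmgcs1, where they lay at positions -232 to -224.
Hmgcs1, chr13:120151732-120151831, plus strand: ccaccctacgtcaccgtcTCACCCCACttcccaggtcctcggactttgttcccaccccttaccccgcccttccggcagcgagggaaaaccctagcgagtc

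The letters GGAATG, the core that TEAD factors bind together with YAP and TAZ, were in 10 of 19 promoters of the YAP and TAZ target list and in 1674 of 12743 promoters (13.1%). The Ccn2 stretch held them 3 times and the Nuak2 stretch once, as the reverse complement. Among all genes higher in KO+R they were in 69 of 529 promoters (13.0%). These are matches of letters within one window, and binding of a factor was not measured.
Ccn2, chr10:24471213-24471332, plus strand: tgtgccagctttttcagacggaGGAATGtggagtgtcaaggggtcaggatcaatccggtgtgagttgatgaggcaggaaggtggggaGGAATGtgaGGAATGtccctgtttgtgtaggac
Nuak2, chr1:132243804-132243863, plus strand: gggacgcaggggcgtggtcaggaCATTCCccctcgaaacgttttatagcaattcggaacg

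The 6 libraries held between 18.83 and 25.03 M estimated counts (M, 1000000). The share of counts from the mitochondrial genome was 1.66, 2.05 and 2.17% in KO+P and 2.23, 2.9 and 2.3% in KO+R, higher with rapamycin in every culture and without overlap, against 2.07 to 2.37% in untreated KO, and its part in the results was not tested. Pdcd10 lay between 13.1 and 16.7 counts per 1000000 (CPM) in KO+P and between 7.83 and 9.53 CPM in KO+R (log2 difference -0.78, edgeR adjusted p = 0.216), against 9.72 to 11.0 in untreated KO. In WT it spanned 27.7 to 60.8 CPM except in the untreated WT library of replicate 1, which at 11.5 CPM was at the KO level, and leaving that library out gave 1396 called genes in place of the 1428 given in the next paragraph. The summed CPM of 23 endothelial genes was 12400 to 19500 in KO+P and 19900 to 22500 in KO+R. Markers of other cells were low: the summed level of 13 mural cell genes was 70.1 to 133 CPM in KO+P and 85.1 to 175 in KO+R, of 10 astrocyte genes 73.9 to 115 and 35.3 to 60.8 (92.2% of it Gja1, with Gfap at 0), of 13 microglia and macrophage genes 15.0 to 25 and 3.52 to 10.5 (86.5% of it Cd68, with P2ry12 and Trem2 at 0), and of 11 fibroblast genes 8.75 to 112 and 16.8 to 267. All 5 tested microglia and macrophage genes had lower fitted levels in KO+R. Cd68 and Csf1r were called lower in each of the 6 fits that left out 1 compared library. The part of these other cells in the results was not tested, and in bulk RNA fewer cells of a type and less RNA per cell cannot be told apart.

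Of 14838 genes tested, 1428 (9.62%) differed between KO+R and KO+P at an edgeR adjusted p below 0.05 and a fold change above 1.5. With rapamycin 594 genes (4%) were higher and 834 (5.62%) were lower, with a median absolute log2 difference of 1.06 among them, and a gene is called higher or lower in what follows only where it passed both thresholds. The 3 KO+R values lay entirely above or below the 3 KO+P values for 1212 of the 1428, and for 3790 (25.5%) of all tested genes. Against untreated KO, 739 genes (4.98%) were called with rapamycin and 21 (0.142%) with propranolol, although 3716 genes had an unadjusted p below 0.05 with propranolol; both of these comparisons used the same 3 untreated KO libraries. The number of genes called between the drugs depended on single libraries: it was 641 without KO+P replicate 1, 700 without KO+P replicate 2, 2112 without KO+P replicate 3, 672 without KO+R replicate 1 and 739 without KO+R replicate 2. An exact permutation test of 3 against 3 libraries cannot give a two-sided p below 0.1, so all p-values come from the model across genes.

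**Figure D1:**
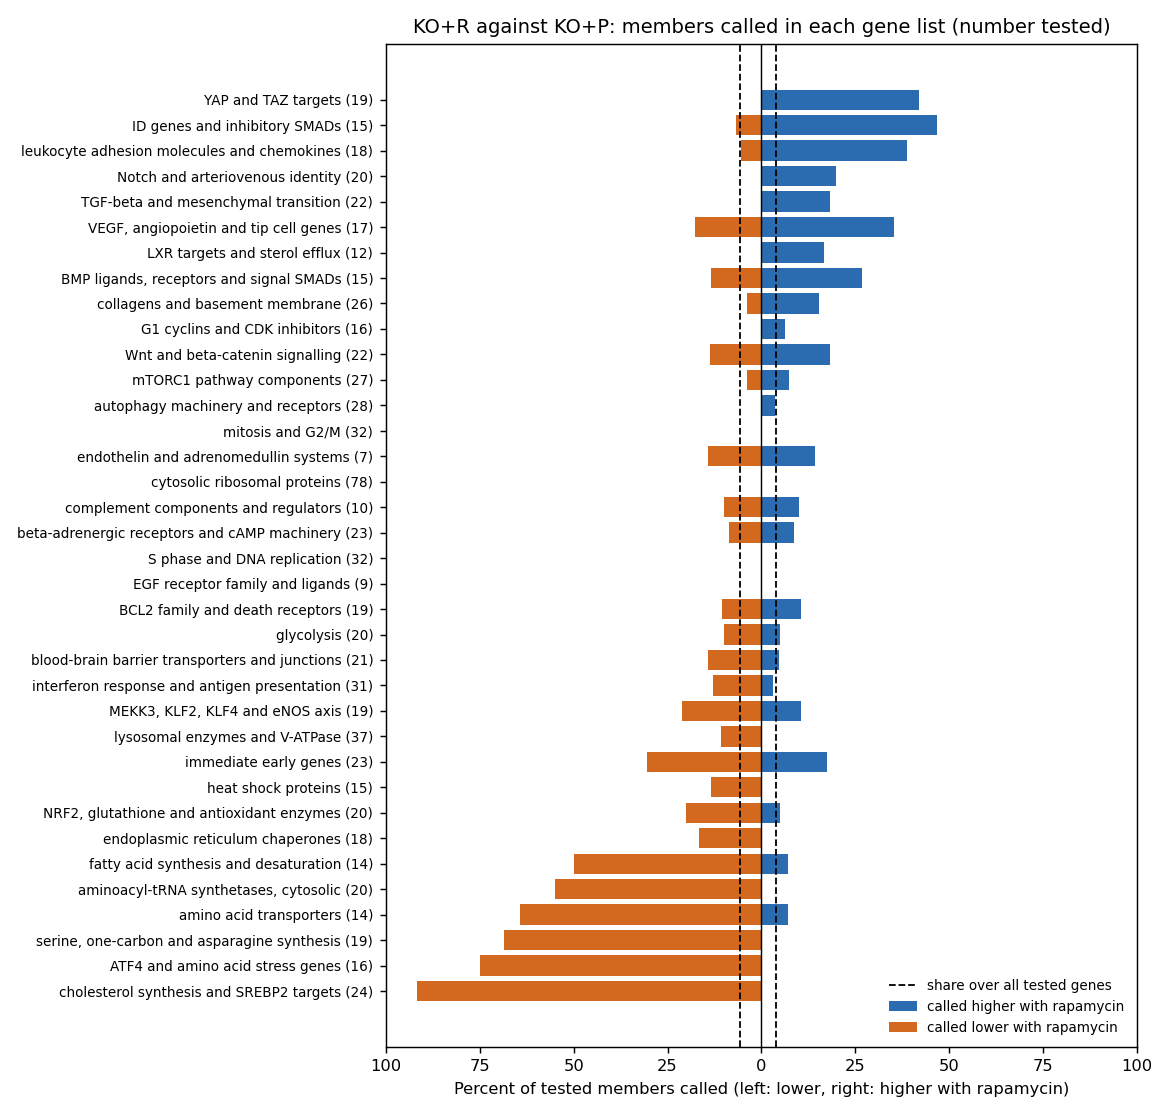
Percent of the tested members of each gene list called higher (right) or lower (left) in KO+R than in KO+P, with dashed lines at the share over all 14838 genes. On the lower side the cholesterol, ATF4, serine and transporter lists have the largest shares, followed by the synthetase and fatty acid lists. On the higher side the ID gene and inhibitory SMAD list is closely followed by the YAP and TAZ, leukocyte adhesion and VEGF lists.

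Sterol synthesis separated the drugs in all 3 cultures. Of 24 tested genes of cholesterol synthesis and SREBP2 targets, 22 were lower in KO+R than in KO+P, 0 were higher, and only Mvk (log2 difference -0.21) and Ebp (-0.31) were not called, against 5.62% of all genes. The same 22 was counted in each of the 6 fits that left out 1 of the compared libraries. The median log2 difference of the list was -1.27, and within replicates 1, 2 and 3 it was -1.41, -1.35 and -1.22, so that the cultures differed little. Both drugs moved away from untreated KO: the median was 0.89 for KO+P over KO, with 12 of the 24 called higher, and -0.37 for KO+R over KO, with 7 called lower. Those 12 genes were among the 21 called with propranolol in KO cells.

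Insig1, which holds SREBP precursors in the endoplasmic reticulum when sterols are plentiful, was at 399, 392 and 210 CPM in KO+P replicates 1, 2 and 3 and at 48.9, 80.7 and 49.6 in KO+R (log2 difference -2.44 ± 0.29 SE, edgeR adjusted p = 0.000644), a fitted difference of 5.42-fold. The KO+R values of Insig1 were close to the 77.1, 91.1 and 46.7 CPM of untreated KO, and there it was propranolol that was called (2.21).

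The enzymes along the pathway followed. Hmgcs1, which makes HMG-CoA and carries the sterol element printed with the promoters, was at 78.3, 107 and 75.6 CPM in KO+P and at 31.7, 40.7 and 31.7 in KO+R (-1.32 ± 0.12, edgeR adjusted p = 0.00021). The groups did not overlap. Sqle, which makes the squalene epoxide, was called in both directions from untreated KO, at 1.04 with propranolol and -0.70 with rapamycin. Idi1 (-2.03) and Cyp51 (-2.48) had larger differences between the drugs, but 28.3% of the exonic bases of Cyp51 are shared with another annotated gene and these unstranded reads cannot tell the genes apart.

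Among 14 genes of fatty acid synthesis and desaturation, 7 were lower in KO+R and 1 was higher (57.1% called, against 9.62% of all genes, median log2 difference -0.55). Scd2, a desaturase that makes monounsaturated fatty acids, was at 714, 958 and 938 CPM in KO+P and at 81.9, 252 and 123 in KO+R, with no overlap (-2.63 ± 0.31, edgeR adjusted p = 0.00057). Elovl6, which elongates palmitate, was lower by a log2 difference of -1.93 and Fads2, a desaturase of polyunsaturated fatty acids, by -1.76. Scd1 was also called (-1.69), but not without KO+P replicate 1, KO+R replicate 1, KO+R replicate 2 or KO+R replicate 3. Acacb, a mitochondrial acetyl-CoA carboxylase, was the exception at 0.83. The rate-limiting Acaca (-0.47) and the factor Srebf1 (-0.45) did not pass the fold threshold. Of 12 genes of sterol efflux and liver X receptor targets, the exporter Abca1 (1.65) and Apoe (1.57) were higher in KO+R (16.7% called, against 9.62% of all genes). Neither call held without KO+P replicate 1, KO+P replicate 2, KO+R replicate 1 or KO+R replicate 2.

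**Figure D2:**
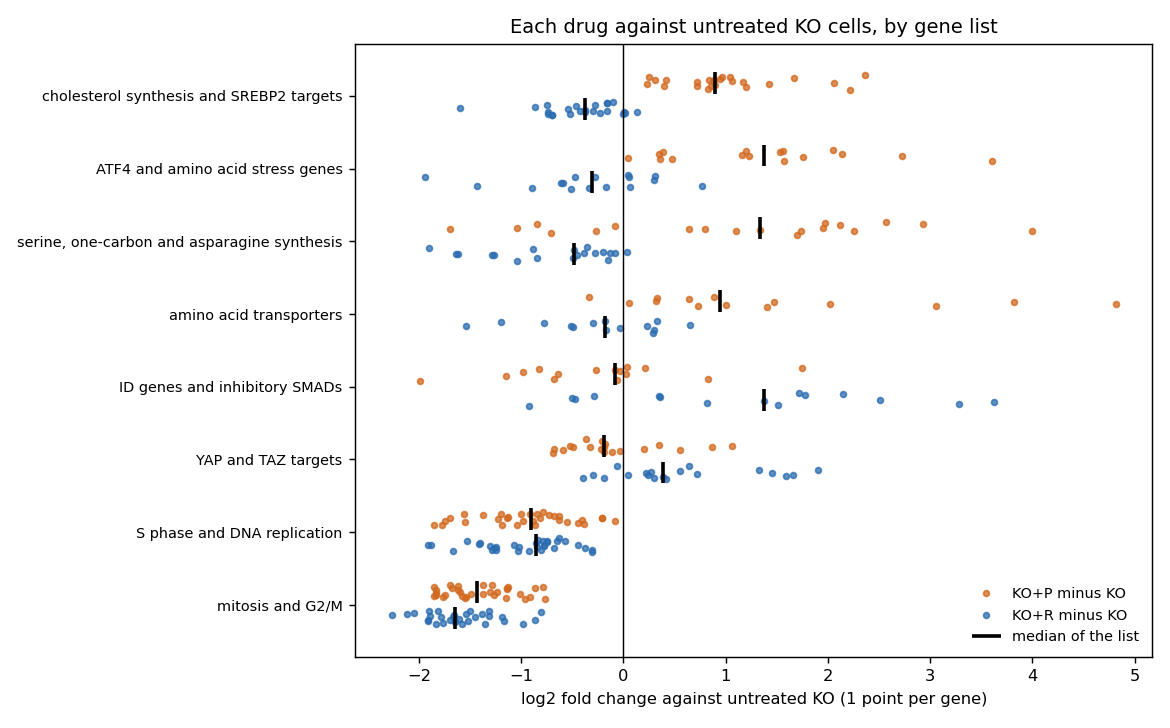
Log2 differences of KO+P from untreated KO and of KO+R from untreated KO for each tested member of 8 gene lists, 1 point per gene, both taken against the same 3 untreated libraries. Sterol, ATF4 and serine genes lie mostly above 0 for KO+P, with list medians of 0.89, 1.38 and 1.33, and the ID gene and inhibitory SMAD list lies above 0 for KO+R, with a median of 1.37.

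Amino acid stress genes were the other large group below KO+P. ATF4 is translated when amino acids are short or the endoplasmic reticulum is stressed, and also on mTORC1 activity, and drives genes for amino acid supply. Of 16 tested ATF4 and amino acid stress genes 12 were lower in KO+R and 0 higher (median log2 difference -1.75), against 5.62% and 4% of all genes. The medians were 1.38 for KO+P over KO and -0.31 for KO+R over KO, with 1 gene called higher and 3 called lower in those comparisons. Chac1, which degrades glutathione and carries the ATF4 element printed with the promoters, was at 670, 485 and 142 CPM in KO+P, at 23.2, 25.9 and 15.8 in KO+R and at 22.4, 51.2 and 22.9 in untreated KO. KO+P was far above both other groups in every culture, and the fitted level was 18.3-fold higher than in KO+R (-4.19 ± 0.63, edgeR adjusted p = 0.00217). Atf4 itself was at 1047, 583 and 414 CPM in KO+P and at 200, 150 and 174 in KO+R (-1.91 ± 0.30, adjusted p = 0.00275). Stc2, a secreted glycoprotein, was lower at -2.30, and here it was rapamycin that was called against untreated KO (-1.94). Ddit3, the stress factor CHOP, was at 202, 75.6 and 41.9 CPM against 17.2, 16.5 and 14.7 (-2.53), a call that was lost without KO+R replicate 1, and 82.4% of its exonic bases are shared with another gene.

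Genes of serine and one-carbon metabolism were lower in KO+R as well. Of 19 genes of serine, one-carbon, proline and asparagine synthesis, 13 were lower in KO+R and 0 higher (median -1.82), against 5.62% and 4% of all genes. Mthfd2, the mitochondrial folate enzyme, was at 249, 151 and 61.4 CPM in KO+P, at 3.92, 12.4 and 8.06 in KO+R and at 12.8, 29.1 and 17.4 in untreated KO. The lowest KO+P library was above every library of the other 2 groups (KO+R against KO+P -4.19 ± 0.70, edgeR adjusted p = 0.00379). Psat1, of serine synthesis, was at 162, 97.7 and 35.0 against 4.76, 8.65 and 7.48 CPM (-3.74 ± 0.60, adjusted p = 0.00313). Asns, asparagine synthetase, was at 452, 275 and 102 against 32.5, 38.9 and 32.9 CPM (-2.85 ± 0.48, adjusted p = 0.00395). Phgdh, the first enzyme of serine synthesis, differed by -2.86, lost without KO+R replicate 1. The nucleotide-linked members Tyms (-0.44), Mthfd1 (-0.09) and Shmt1 (-0.13) were not called. The count of 13 fell to 7 without KO+P replicate 1, to 5 without KO+R replicate 1 and to 8 without KO+R replicate 2.

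Of 14 amino acid transporters 9 were lower in KO+R and 1, the taurine transporter Slc6a6 (0.98), was higher, a call that 4 of the 6 fits leaving out 1 library did not give. Over all genes 5.62% were lower and 4% higher. Slc7a5, the large neutral amino acid transporter of the blood-brain barrier, was at 344, 267 and 147 CPM in KO+P, at 24.4, 34.9 and 36.0 in KO+R and at 100, 87.3 and 93.3 in untreated KO. The 3 groups did not overlap, and the fitted level was 7.65-fold higher in KO+P than in KO+R (-2.94 ± 0.36, edgeR adjusted p = 0.000775). With rapamycin Slc7a5 was called lower than untreated KO (-1.53), and with propranolol the difference of 1.40 was not called. Slc7a11, the cystine importer, was at 190, 122 and 45.0 CPM in KO+P against 8.05, 10.2 and 15.6 in KO+R (-3.57), and the call was lost without KO+R replicate 1. The count of 9 was 5 without KO+P replicate 1, without KO+R replicate 1 or without KO+R replicate 2. Of 20 cytosolic aminoacyl-tRNA synthetases 11 were lower (median -0.98), led in confidence by Cars1 (-1.19 ± 0.20, adjusted p = 0.00426) and Aars1 (-1.16 ± 0.22, adjusted p = 0.00748), both called whichever of the 6 libraries was left out. The list had 3 calls without KO+P replicate 1, 5 without KO+P replicate 2, 2 without KO+R replicate 1 and 5 without KO+R replicate 2.

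The ratios of KO+P over KO for amino acid genes were graded among cultures while those for sterol genes were not, and this grading was not tested. Against untreated KO, propranolol was called higher for 1 of 16 ATF4 genes, 1 of 19 serine genes, 0 of 14 transporters and 0 of 20 synthetases. It was called for 0 of 18 endoplasmic reticulum chaperones and for 12 of 24 sterol genes, against 0.142% of all genes in either direction. The median log2 ratio of KO+P over KO within replicates 1, 2 and 3 was 2.20, 1.51 and 0.43 for ATF4 genes, 1.95, 1.29 and 0.43 for serine and one-carbon genes and 1.30, 0.81 and 0.25 for the synthetases. For 18 endoplasmic reticulum chaperones, of which 3 were lower in KO+R (against 5.62% of all genes), it was 1.55, 0.45 and -0.02, and those 3 calls (Herpud1, Edem1 and Xbp1) were all lost without KO+P replicate 1, KO+P replicate 2, KO+R replicate 1 or KO+R replicate 2. For sterol genes it was 0.81, 1.06 and 0.89. The same cultures also differed in other ways. The median of KO+P over KO for endothelial genes was -0.78, -0.31 and -0.24 and for mitosis genes -2.04, -1.31 and -0.65. The part of these differences in the amino acid gene ratios was not tested. With all 3 conditions of replicate 1 and the WT libraries of that number left out, a choice made after seeing the data, 525 genes were called, with 20 of the 24 sterol genes, 8 of the 16 ATF4 genes, 9 of the 19 serine genes, 5 transporters and 3 synthetases lower.

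**Figure D3:**
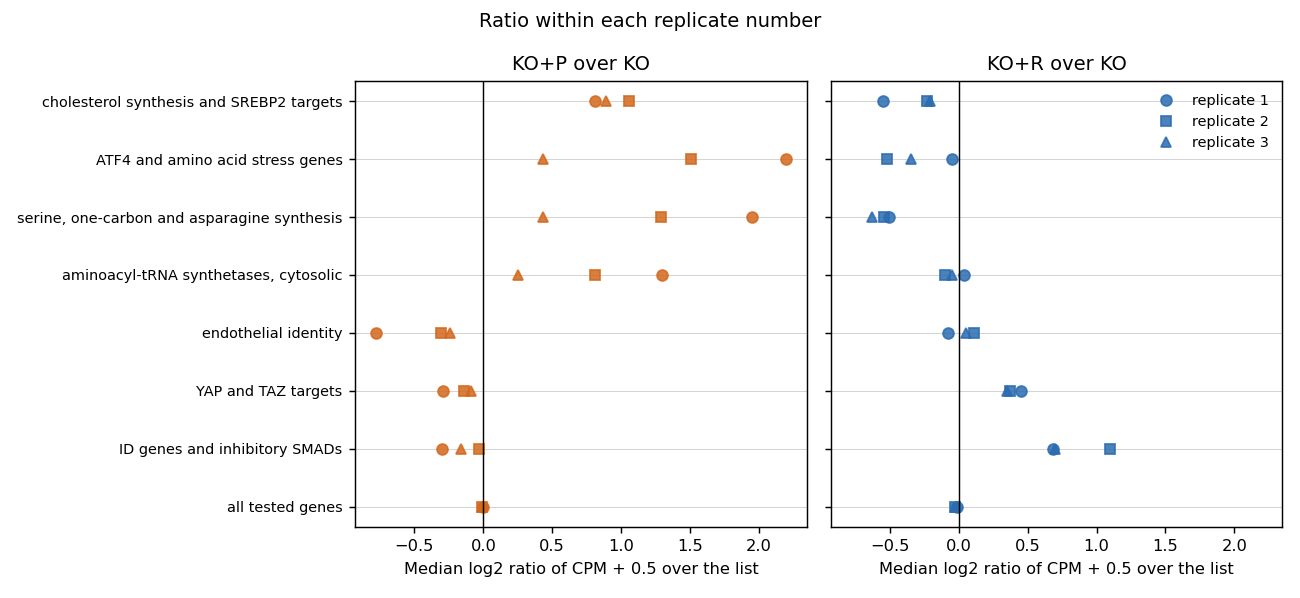
Median log2 ratio over the members of 8 gene lists within each replicate number, for KO+P over untreated KO and KO+R over untreated KO, from CPM with 0.5 added. For KO+P the ATF4 list falls from 2.20 in replicate 1 to 0.43 in replicate 3, whereas the cholesterol list stays between 0.81 and 1.06.

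On the higher side, a list of targets and modulators of BMP signalling separated the drugs. Of 15 tested ID genes, inhibitory SMADs and related targets, 7 were higher in KO+R and 1, the BMP antagonist Nog, was lower (median 1.78), against 4% and 5.62% of all genes, and the 7 were counted in each of the 6 fits that left out 1 of the compared libraries. Nog, at 1.03 to 2.25 CPM in KO+P and 0.265 to 0.401 in KO+R, was called in fits without KO+P replicate 3 and lost without each of the other 5 compared libraries. The median was 1.37 for KO+R over KO, with 6 called higher, and -0.08 for KO+P over KO, with 0 called. From CPM with 0.5 added, the medians within replicates 1, 2 and 3 were smaller, at 1.42, 0.69 and 1.33 for KO+R over KO+P and at 0.68, 1.10 and 0.70 for KO+R over KO. Id3, an inhibitor of basic helix-loop-helix factors, was at 355, 269 and 279 CPM in KO+R, at 42.9, 24.5 and 24.4 in KO+P and at 37.1, 28.1 and 27.5 in untreated KO. KO+P and untreated KO overlapped and KO+R stood apart from both, with a fitted level 9.98-fold above KO+P (log2 difference 3.32 ± 0.16, edgeR adjusted p = 3.14e-06). Smad6, which blocks BMP receptors from activating SMAD1 and SMAD5, was at 242, 281 and 216 CPM in KO+R against 19.1, 26.8 and 38.1 in KO+P (3.15 ± 0.27, adjusted p = 0.000188). Smad7 (1.78 ± 0.099, adjusted p = 6.99e-06), Id1 (2.20), Id2 (2.04) and Atoh8, an endothelial BMP target (5.61, from 0.375, 0 and 1.55 CPM in KO+P to 43.6, 11.7 and 28.1 in KO+R), were also higher. Hey1, which is in the Notch gene list as well, was the remaining gene called higher. Its log2 difference was 2.28 to 3.6 in the 6 fits that left out 1 compared library. Per transcript length, the mean level of Id1 was 681 transcripts per 1000000 (TPM) in KO+R and 164 in KO+P, that of Id3 425 and 45.7, and that of Id2 10.2 and 2.60. For Id2, 36.2% of the exonic bases are shared with another gene. Id4, at under 1 TPM in all 6 libraries, differed by -0.84 and was not called. The letters GGCGCC, a SMAD1 and SMAD5 motif, were in 6 of 13 promoters of this list and in 2165 of 12743 (17.0%), and in 116 of the 529 promoters of genes higher in KO+R (21.9%).

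The ligands and receptors of the pathway did not move as one group. Of 15 genes, 4 were higher and 2 were lower in KO+R (median 0.06), against 4% and 5.62% of all genes. Bmp2, a BMP ligand, was at 294, 159 and 84.2 CPM in KO+P, at 8.10, 8.37 and 6.91 in KO+R and at 91.6, 57.4 and 55.8 in untreated KO. Every KO+R library was below every other KO library, and the fitted level was 21.2-fold higher in KO+P than in KO+R (-4.41 ± 0.44, edgeR adjusted p = 0.000303). Bmp6, an endothelial ligand that also controls hepatic iron regulation, went the other way, at 53.3, 47.4 and 87.0 CPM in KO+P and 374, 179 and 240 in KO+R (2.03 ± 0.27, adjusted p = 0.00122). Bmp4 was called at 1.47, a call lost without KO+P replicate 1, KO+P replicate 2 or KO+R replicate 1, and 31.1% of its exonic bases are shared with another gene. Per length, Bmp2 averaged 80.5 TPM and Bmp6 28.7 TPM in KO+P, and 3.30 and 109 TPM in KO+R, so that their order was opposite under the 2 drugs. The type II receptor Bmpr2 (1.07) and the co-receptor Eng (1.27) were higher and the signal transducer Smad1 was lower, from 280, 167 and 223 CPM in KO+P to 97.3, 59.5 and 88.6 in KO+R (-1.44 ± 0.089, adjusted p = 1.37e-05).

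**Figure D4:**
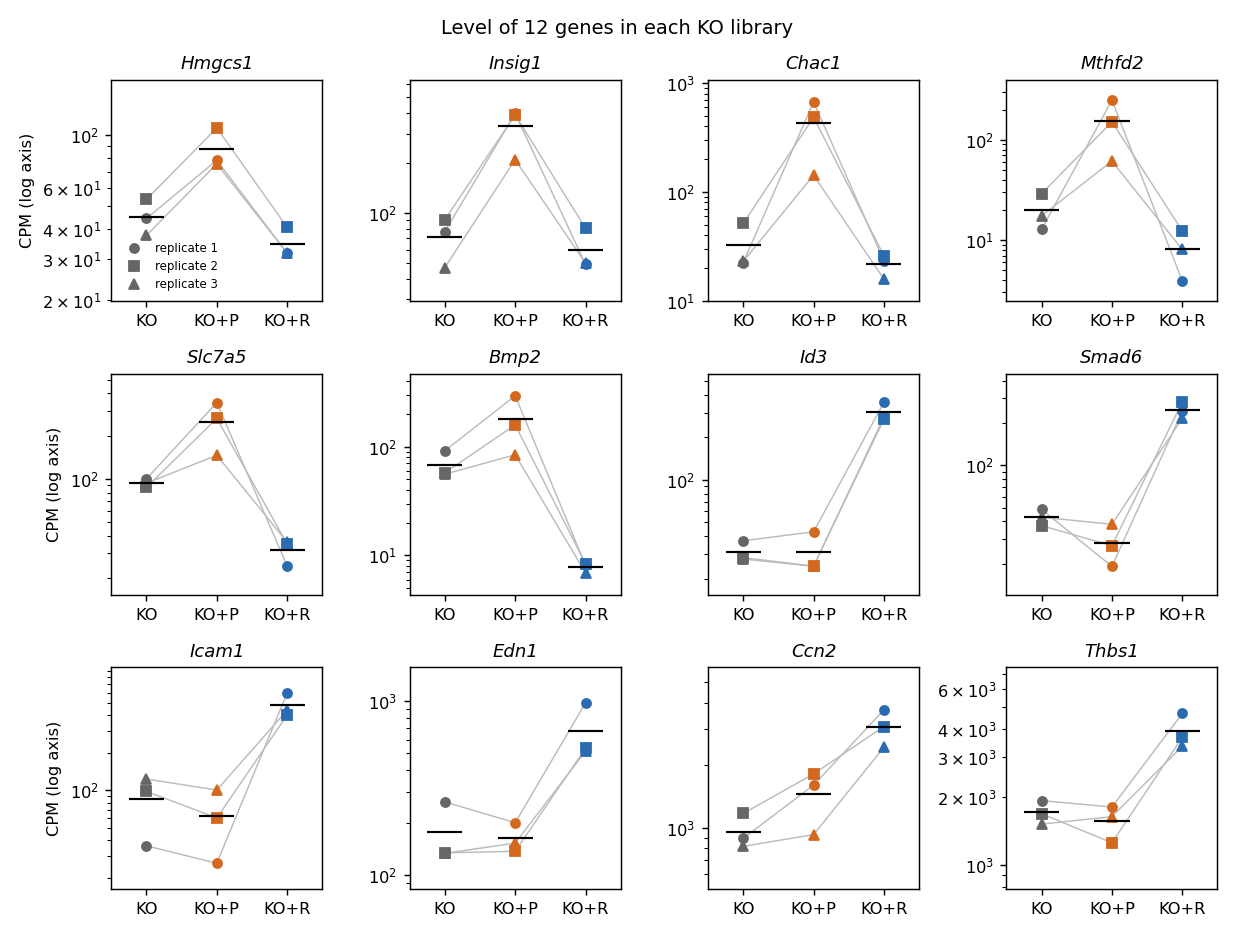
CPM of 12 genes in untreated KO, KO+P and KO+R on log axes, 1 point per library, with lines joining libraries of the same replicate number and bars at the group means. Hmgcs1, Insig1, Chac1, Mthfd2, Slc7a5 and Bmp2 are higher in every KO+P than in every KO+R library, and Id3, Smad6, Icam1, Edn1, Ccn2 and Thbs1 lower.

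Of 19 targets and components of YAP and TAZ, the effectors of the Hippo pathway, 8 were higher in KO+R and 0 lower (median 0.60). Over all genes 4% were higher and 5.62% lower. Nuak2, a kinase whose promoter stretch is printed with the others, was at 5.79, 7.63 and 8.98 CPM in KO+P and at 64.6, 36.5 and 31.3 in KO+R (2.58 ± 0.39, edgeR adjusted p = 0.00221). Ccn2, a matricellular protein, was at 1606, 1817 and 929.6 CPM against 3691, 3070 and 2441 (1.10 ± 0.21, adjusted p = 0.00787), and Ccn1 differed by 1.11 and Crim1 by 1.14. The groups did not overlap in any of these 4, although exonic bases are shared with another gene for 36.5% of Ccn2 and 23% of Ccn1. The factors Yap1 (0.41), Wwtr1 (0.42) and Tead1 (0.55) were not called. Tested against a minimum fold change of 1.5 rather than filtered by it, 1 of the 19 was called. Of 22 genes of TGF-beta signalling and mesenchymal transition 4 were higher and 0 lower (18.2% called, against 9.62% of all genes, median 0.30). Smad3 (1.01) and the receptor Tgfbr1 (0.80) were called, whereas Snai1 (0.29), Snai2 (-0.95), Twist1 (0.14), Zeb1 (0.43), Fn1 (0.68) and Vim (-0.46) were not.

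Leukocyte adhesion and chemokine genes were higher in KO+R for 7 of 18 and lower for 1 (median 0.64), against 4% and 5.62% of all genes. Icam1, which binds leukocyte integrins, was at 26.3, 60.4 and 100.7 CPM in KO+P, at 597, 398 and 436 in KO+R and at 36.2, 98.2 and 123 in untreated KO. Its KO+P and untreated values overlapped, and the lowest KO+R value was above both groups (3.21 ± 0.51, edgeR adjusted p = 0.00276). Vcam1, which binds integrin alpha4, differed by 1.40, the chemokine Cxcl12 by 1.86 and the atypical chemokine receptor Ackr4 by 3.71, from at most 0.31 CPM in KO+P to no less than 2.50 in KO+R (20.3% of its exonic bases are shared with another gene). Sele (0.40), Selp (0.88), Ccl2 (0.00) and Il6 (-0.33) were not called. Edn1, the vasoconstrictor endothelin, was at 200, 137 and 153 CPM in KO+P and 975, 534 and 514 in KO+R (2.00 ± 0.16, adjusted p = 0.00014), with 22.5% of its exonic bases shared with another gene. Its receptor Ednrb was lower, from 56.6, 24.7 and 27.0 CPM to 2.81, 3.36 and 6.82 (-2.94 ± 0.46, adjusted p = 0.00261).

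Of 17 genes of VEGF, angiopoietin and tip cells 6 were higher in KO+R and 3 lower, against 4% and 5.62% of all genes. Esm1, a tip cell proteoglycan, was at 93.2, 51.4 and 43.6 CPM in KO+P and 257, 144 and 120 in KO+R (1.47 ± 0.12, edgeR adjusted p = 0.000176), and Cxcr4, the receptor of Cxcl12, at 1297, 468 and 593 against 410, 111 and 172 (-1.84 ± 0.19, adjusted p = 0.00031). Within each culture both genes differed in these directions. Kdr, the main VEGF receptor, was at 59.2, 83.4 and 300 CPM in KO+P and 463, 485 and 542 in KO+R (2.00, adjusted p = 0.0204), while untreated KO was at 373, 276 and 384. The spread of Kdr among KO+P cultures was wide, and its call was lost without KO+P replicate 1, KO+P replicate 2, KO+R replicate 1 or KO+R replicate 2. Vegfa was lower in KO+R (-1.45) and was lost without the same 4 libraries. Among 23 endothelial identity genes 5 were higher and 0 lower (median 0.46), of which Eng was called whichever library was left out. The count of 5 was 1 without KO+P replicate 1, KO+P replicate 2 or KO+R replicate 2, 3 without KO+R replicate 1 or KO+R replicate 3, and 8 without KO+P replicate 3. Cdh5 (0.16), Pecam1 (0.41), Cldn5 (0.18) and Erg (0.05) were not called. The list's median was -0.44 for KO+P over KO and -0.02 for KO+R over KO, with 0 genes called lower with propranolol.

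The KLF2 and KLF4 pathway, whose genes the study followed by RT-qPCR, was mixed. Klf2 was at 585, 461 and 575 CPM in KO+P and 414, 482 and 581 in KO+R (log2 difference -0.14 ± 0.41, edgeR adjusted p = 0.855), Klf4 at 375, 432 and 353 against 112, 219 and 233 (-1.07 ± 0.38, adjusted p = 0.0772), and Nos3, the endothelial nitric oxide synthase, at 566, 977 and 1049 against 404, 780 and 756 (-0.43 ± 0.30, adjusted p = 0.36). None of the 3 was called, although the Klf4 values did not overlap. The 4 ADAMTS proteases of the list, which cleave versican and other proteoglycans, were all lower in KO+R. Adamts1 was at 243, 465 and 301 CPM in KO+P and 59.5, 64.7 and 115 in KO+R (-2.10 ± 0.36, adjusted p = 0.00408), and Adamts5 differed by -2.57, Adamts9 by -2.18 and Adamts4 by -1.58. Thbs1, an anti-angiogenic matrix protein, was at 1805, 1253 and 1637 CPM in KO+P and 4689, 3672 and 3355 in KO+R (1.32 ± 0.16, adjusted p = 0.000686). Heg1, the transmembrane partner of the CCM complex, was at 174, 405 and 849.7 CPM against 1405, 2338 and 2307 (2.21). The RT-qPCR set also held genes of cell death and Notch signalling. The pro-apoptotic Bcl2l11 (-1.49 ± 0.15, adjusted p = 0.000303) and the death receptor Tnfrsf10b (-0.68 ± 0.086, adjusted p = 0.000792) were lower, and Bax (-0.06), Dll4 (-0.34) and Dll1 (-1.19) were not called.

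Immediate early genes included 7 that were lower and 4 that were higher in KO+R, of 23, against 5.62% and 4% of all genes. The orphan nuclear receptor Nr4a1 was at 264, 216 and 212 CPM in KO+P, 55.8, 37.7 and 59.7 in KO+R and 86.3, 47.7 and 69.4 in untreated KO (-2.18 ± 0.37, edgeR adjusted p = 0.00396). Its relatives Nr4a2 (-2.14) and Nr4a3 (-3.77) were lower as well, so all 3 members of the family were called in 1 direction. Fos (0.74), Jun (-0.39) and Egr1 (-0.20) were not called, and Maff (1.26), Junb (0.62), Ier3 (0.84) and Dusp6 (1.54) were higher. Among 23 genes of beta-adrenergic and cAMP signalling 2 were higher and 2 lower (17.4% called, against 9.62% of all genes). Pde4a, a phosphodiesterase that degrades cAMP, was at 9.12, 10.8 and 14.6 CPM against 35.3, 30.9 and 25.4 (1.42 ± 0.18, edgeR adjusted p = 0.000866), and the cAMP-responsive repressor Crem was lower (-0.96 ± 0.11, adjusted p = 0.000461).

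Proliferation genes were not called between the 2 drugs in the main fit, and their medians were below untreated KO with both. Of 32 S phase genes and 32 mitosis genes 0 were called in either direction in that edgeR fit, against 9.62% of all genes. With only the 9 KO libraries, or only the 6 compared, edgeR called 1 S phase gene higher and 1 mitosis gene lower in KO+R. DESeq2 on all 16 libraries called 1 S phase gene higher. Across all genes 4646 had an unadjusted p below 0.05. Top2a, which untangles chromosomes, was at 3.58, 20.7 and 27.6 CPM in KO+P, 4.13, 28.9 and 18.7 in KO+R and 26.6, 74.4 and 47.1 in untreated KO. The treated groups overlapped (-0.08, edgeR adjusted p = 0.947). The S phase median was -0.90 for KO+P over KO and -0.85 for KO+R over KO, and the mitosis median -1.43 and -1.65. For KO+R over KO, 10 S phase and 8 mitosis genes were called lower, and for KO+P over KO 0 of either. The sign of the small median between the drugs changed with the library left out, from -0.27 to 0.26 for S phase and from -0.45 to 0.43 for mitosis.

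Genes encoding the mTORC1 pathway itself and the growth machinery downstream of it differed little. Of 27 pathway components 11.1% were called, against 9.62% of all genes. Rictor (0.86), a subunit of mTORC2, and Irs2 (1.30) were higher and Eif4ebp1, the translation repressor and an ATF4 target, was lower (-0.90). Of these 3, Rictor alone was called whichever of the 6 libraries was left out. Mtor (0.19), Rptor (0.09), Rheb (-0.26) and Rps6kb1 (-0.04) were not called. Of 78 cytosolic ribosomal protein genes 0 were called, though the difference was positive for 72 (median 0.29), and for KO+R over KO the median was 0.51 with 18 called higher. Of 37 lysosomal genes 4 were lower in KO+R and 0 higher (10.8% called in either direction, against 9.62% of all genes). Of 28 autophagy genes 1, the mitophagy receptor Bnip3l (0.68), was higher (3.57%, against 4% of all genes). That call was lost without KO+P replicate 1, KO+P replicate 2 or KO+R replicate 2. The lysosomal list includes Atp6v1a (-0.59) and Atp6v0a1 (-0.61), subunits of the proton pump, and each of the 4 calls was lost without at least 1 library. Of the 9 tested EGF receptor family genes and ligands 0 were called, which for so few genes is near the 9.62% called over all genes.

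The 168 genes that the study listed as changed by Ccm3 loss were chosen on the untreated KO and WT libraries, which are not part of the contrast between the drugs, but their direction is not independent evidence for a drug's effect. They were split here by their fitted difference between untreated KO and WT, which includes the WT library with Pdcd10 at the KO level. Of the 104 higher in KO, 22 were lower in KO+R than in KO+P and 4 were higher (median -0.21). Of the 64 lower in KO, 27 were higher and 5 were lower (median 0.68). Over all tested genes 4% were higher and 5.62% lower. Against untreated KO, the median of the 104 was -0.4 for KO+R and -0.2 for KO+P. That of the 64 was 0.2 for KO+R and -0.39 for KO+P. The untreated KO libraries enter both the split and these medians. Id3 belongs to the 64. The 22 became 11 without KO+R replicate 1 and 14 without KO+R replicate 2. Bmp2, among the listed genes, is described with the BMP ligands, and Sox11, a developmental transcription factor, was at 24.5, 57.4 and 5.06 CPM in KO+P, 0.265, 0.451 and 0.535 in KO+R and 1.12, 3.45 and 0.933 in untreated KO (-5.73 ± 0.58, edgeR adjusted p = 0.000304). For Sox11 it was propranolol that was called against untreated KO (3.80).

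The same drug comparison in WT cells, with 2 libraries per drug, gave 731 called genes (4.93%), of which 303 (2.04%) were higher and 428 (2.88%) lower with rapamycin. Of the genes called in KO, 592 of 594 higher and 821 of 834 lower ones had the same sign in WT, against 79.4% of all tested genes. All tested genes were not chosen for a large difference in KO, so these shares are of unlike sets. In both genotypes 575 genes were called, with 0 of opposite sign. The summed level of the mural cell genes was 532 and 703 CPM in WT+R against 187 and 375 in WT+P and 52.2 to 218 in untreated WT, without overlap between the drugs, and its part in the WT comparison was not tested. The WT libraries are separate from the KO ones, although KO and WT cells of 1 number may come from the same preparation. Among sterol genes 21 of 24 were lower in WT+R (median -1.32), among ATF4 genes 9 of 16 (median -1.64), and among ID genes and inhibitory SMADs 6 of 15 were higher (median 0.64). The WT count also depended on single libraries, from 86 without WT+R replicate 1 and 163 without WT+P replicate 1 to 408 without WT+R replicate 2 and 1766 without WT+P replicate 2.

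A test of the difference between genotypes in the drug contrast called 0 of 14838 genes with edgeR, with 284 at an unadjusted p below 0.05, and 2 with DESeq2. The 2 were Id3 and Cyp26b1. Id3 was at 355, 269 and 279 CPM in KO+R and 396 and 339 in WT+R, but at 42.9, 24.5 and 24.4 in KO+P against 92.6 and 91.6 in WT+P. The KO and WT levels were therefore near each other with rapamycin and apart with propranolol (difference of log2 differences 1.34 ± 0.255, DESeq2 adjusted p = 0.00146, and unadjusted p = 0.000123 with edgeR). Cyp26b1, which degrades retinoic acid, was at 52.2 and 13.5 CPM in WT+R and at 0.925 and 1.5 in WT+P, and between 0.709 and 3.43 in all 6 KO libraries (-4.07 ± 0.783, DESeq2 adjusted p = 0.00146, and unadjusted p = 0.000333 with edgeR). The other 3 genes with the smallest edgeR p were Zbtb47 (0.74, unadjusted p = 0.000563), Abca4 (1.37, unadjusted p = 0.000759) and Kif14 (unadjusted p = 0.000779), the last of which was at 0 CPM in 2 KO+R libraries and 1 KO+P library. None of these 5 passed adjustment with edgeR.

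**Figure D5:**
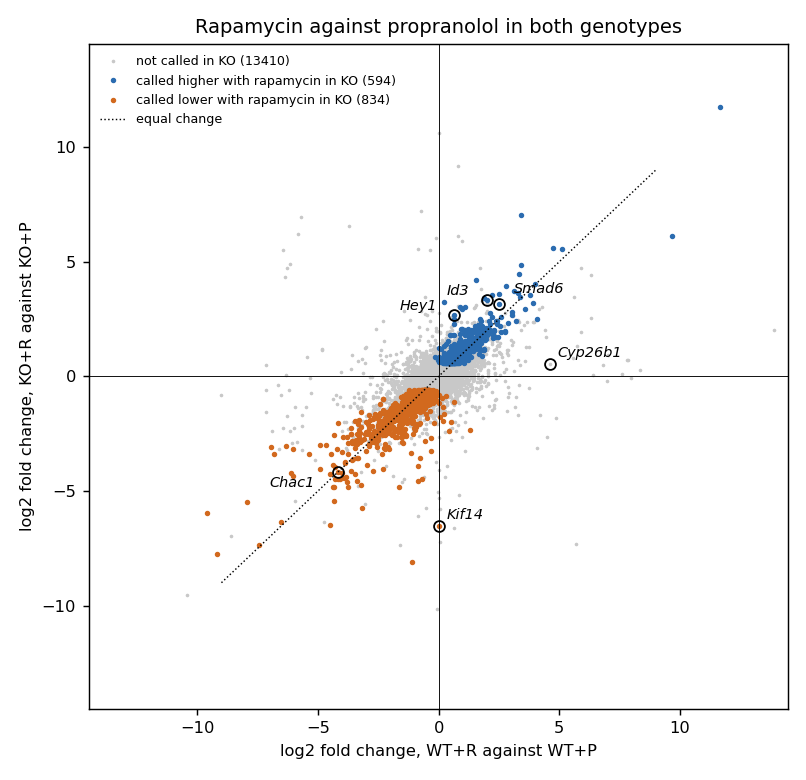
Log2 difference between rapamycin and propranolol in WT (x axis) and in KO (y axis) for 14838 genes, 1 point per gene. The genes named in the plot are circled. Most points far from 0 lie near the diagonal, Cyp26b1 lies at 0.55 in KO and 4.62 in WT, and Id3 at 3.32 and 1.99.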

How the data were processed

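Poly(A) RNA of mBMEC was sequenced unstranded in 16 libraries. The deposited values are expected counts (the NumReads estimates) and TPM for 140789 transcripts per library, made by the authors with Salmon (1.5.2 in the submitters' notes, GRCm39); the study's methods describe STAR, HTSeq and DESeq2 on Ensembl annotation, which these transcript files do not come from. Estimated counts were summed per gene through the GENCODE vM39 annotation, which named 99.12% of transcripts, leaving 0.39 to 0.57% of counts unnamed, and rounded to whole numbers. The submitters' normalisation is not in the counts, and of the per-sample values the estimated counts and TPM were used. Deposited TPM, the authors' length-scaled values, were summed per gene and used only to compare levels between genes.

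Genes were filtered with filterByExpr, scaled by TMM (factors 0.934 to 1.041) and fitted in edgeR 4.0.16 (R 4.3.3; glmQLFit, glmQLFTest) over all 16 libraries with group and replicate number as terms, leaving 8 residual degrees of freedom. Calls needed an adjusted p (Benjamini-Hochberg) under 0.05 together with a fold change over 1.5, and the interaction with genotype at the adjusted p alone. Fold changes are log2 differences, KO+R minus KO+P, with their standard errors (SE). CPM are relative to the scaled library. The replicate numbers pair the cultures: deviations from group means correlated at 0.55, 0.54 and 0.33 for same-numbered KO+R and KO+P libraries and between -0.49 and 0.04 for others. Replicates are separate cultures from pooled brains. The p-values rest on the spread left in all 16 libraries after group and replicate number were fitted, with information shared across genes. They do not measure the spread between the compared KO cultures alone. In simulated counts for 14475 genes with known changes in this comparison, 86% of 2-fold and 99% of 4-fold changes were recovered, with 8 false calls. The simulation took its spread from the fit, gave each culture the same shift in every group and changed few genes, none of low level. It held no difference between cultures in the response to a drug, so it cannot show how reliable the calls in the real data are.

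The comparison, the 46 gene lists and their members were chosen with earlier results of these data known. Genes were named by a rule: the 12 largest rises and 12 largest falls among called genes with groups not overlapping, a mean of 1 CPM or more and at most 10% exonic overlap, up to 4 called members of each list, the genes the study measured by RT-qPCR, and the 5 smallest interaction p-values, 141 genes in all. Other list members are given as examples chosen with their values seen. Promoters run from 250 bases before to 50 after the canonical start, and those of genes on a single autosome and on the mitochondrial genome were left out. DESeq2 1.42.0, other filters, scalings and sample sets, and leaving out each library were tried as alternatives. The study's drug comparisons were not used, and some genes are not reported here. Python 3.11.15, pandas 2.3.3 and matplotlib 3.10.9 were used for tables and plots.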

Additional observations from a re-analysis of the deposited data

How the results depend on the processing

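The count of genes called between KO+R and KO+P was 1428 (594 higher, 834 lower). With no replicate block it was 606 (234 and 372), with only the 6 compared libraries 827 (428 lower), with a test against a fold of 1.5 (glmTreat) 281 (100 and 181), and 894 were higher with DESeq2 on the 9 KO libraries. Leaving out each library gave 641 to 2112 genes (264 to 972 higher, 331 to 1140 lower), and leaving out replicate 1 of every group, added after seeing the data, 525 (250 and 275). DESeq2 on all libraries called 1800, DESeq2 size factors in edgeR 1444 and no filter on low counts 1432. The WT count of 731 was 194 with no replicate block, 1243 with DESeq2 and 86 to 1766 leaving out each library, and the interaction count was 2 with DESeq2.

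For lists, glmTreat left 7 ATF4 genes, 7 serine genes and 4 transporters lower, 0 synthetases, 1 YAP target higher and 1 endothelial gene higher, and the 1 higher transporter and the 1 lower gene of the ID list became 0 with glmTreat and with no replicate block. With no replicate block 1 endothelial gene, 8 ATF4 genes and 6 YAP targets were called. With only the 6 libraries 5 synthetases were called. The 9 KO libraries gave 8 endothelial genes higher and DESeq2 on them 9. With the 9 KO libraries, DESeq2 on them or only the 6 libraries, 1 S phase gene was higher (also with DESeq2 on all libraries) and 1 mitosis gene lower. Leaving out single libraries gave 22 sterol, 8 to 14 ATF4, 5 to 13 serine and 2 to 14 synthetase genes lower, 5 to 9 transporters lower and 0 to 1 higher, 7 genes of the ID list higher and 0 to 1 lower, 7 to 11 YAP targets, 1 to 8 endothelial genes and 0 to 1 S phase genes higher. The 22 study genes higher in KO and lower with rapamycin were 35 with the 9 KO libraries, 41 with DESeq2 on them, 11 with glmTreat, 12 without replicate 1 and 11 to 25 leaving out each library, and the 27 in the other direction were 17 with no replicate block, 12 with glmTreat and 18 to 27 leaving out each library.

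Of 130 named genes called, 69 were called in all 6 fits that left out a compared library, 78 with no replicate block and 129 with DESeq2. Among the named genes refitted for this contrast, the sign changed for Klf2 and Bax, neither of which was called. Klf2 was at 0.05 without replicate 1 of every group and down to -0.40 leaving out each library, and Bax was at -0.17 to 0.03. The causes of these differences were not tested. With 3 cultures per drug the model's spread estimate limits the calls, and genes near 0 counts have no reliable fold.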

Other observations

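The genes of this paragraph were chosen after their values were seen and belong to none of the gene lists. Nos2, the inducible nitric oxide synthase, was at 86.6, 58.3 and 33.8 CPM in KO+P, 6.30, 7.22 and 3.12 in KO+R and 53.9, 63.3 and 34.1 in untreated KO (log2 difference -3.41 ± 0.27, edgeR adjusted p = 0.000109). KO+P and untreated KO overlapped and KO+R was below both, which differs from the endothelial synthase Nos3. Rcan1, an inhibitor of calcineurin, was at 1109, 928 and 467 CPM in KO+P, 83.4, 163 and 108 in KO+R and 220, 345 and 205 in untreated KO (-2.79 ± 0.38, adjusted p = 0.00133), so that the 3 groups did not overlap. Eef2, the translation elongation factor whose mRNA carries the terminal oligopyrimidine tract of ribosomal protein mRNAs, was at 2824, 2396 and 2468 CPM in KO+P and 4613, 4292 and 4239 in KO+R (0.78 ± 0.093, adjusted p = 0.000644).

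Exosc6, a subunit of the RNA exosome, was listed at 0 CPM in all 3 KO+P libraries and in both WT+P libraries, against 10.5 to 27.2 in KO+R, 9.94 to 18.8 in untreated KO and 9.94 and 24.7 in WT+R. All of its exonic bases (100%) are shared with another annotated gene, and Aars1, which ends at the same base of chromosome 8 (111784296) on the same strand, was at 377, 298 and 198 CPM in KO+P and 124, 139 and 120 in KO+R. How the deposited estimates divided reads between the 2 genes was not tested.

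Adm2, a peptide of the adrenomedullin family, was at 13.2, 7.25 and 0.826 CPM in KO+P and 0.159, 0.0820 and 0.0445 in KO+R, so that it was near 0 with rapamycin.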
